A study of Macaca mulatta with 32 samples.

Results

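Circular RNAs (circRNAs) of the posterior cingulate cortex (PCC) were compared with those of the other neocortex of the rhesus macaque. All 4 PCC libraries of the series were set against its 16 libraries of occipital (OC), parietal (PC), temporal (TC) and prefrontal (PFC) cortex, chosen by their region labels out of 32 libraries in all. PCC was Brodmann's posterior cingulate area, PFC came from the main sulci, TC from the superior temporal gyrus, PC from the middle sylvian fissure and OC from the primary visual cortex. Each library held RNA pooled from 2 healthy animals of the same sex and age, and pools are called 10F and 10M for females and males aged 10 years, and 20F and 20M for those aged 20 years. The same 4 pools, 8 animals in all, were sampled in every region, so the 16 libraries of the other neocortex held no further animals. All RNA was depleted of ribosomal RNA and digested with RNase R, which degrades linear RNA.

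A circRNA forms by back-splicing, in which the end of a downstream exon is joined to the start of an upstream one, and the closed molecule has no free ends for exonucleases to attack. Neurons are rich in circRNAs, many of them made from genes of synapses and signalling, and one gene can give several circRNAs that differ in the exons they join. The posterior cingulate cortex belongs to the limbic cortex and to the default mode network, and it is known for an early loss of glucose metabolism in Alzheimer disease. A circRNA is named here by its host gene and by the chromosome and the positions of its 2 joined ends, as the deposited table lists them in a genome build not given in the sources used here.

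Divergent primers, which point away from each other on the linear transcript and meet only across a back-splice junction, were designed in the study for 4 of the circRNAs to which the results below refer. They are shown because they name the junctions. Those of PPIG (chromosome 12, 33230692 to 33231795), TLE1 (chromosome 15, 90413617 to 90415753) and GLT1D1 (chromosome 11, 130202158 to 130202959) were listed by the study as PCC candidates. That of WDR41 (chromosome 6, 73699671 to 73701378) had the largest difference between PCC and the rest, and the study listed it as enriched in OC. Each sequence reads 5′ to 3′, and none of its letters is set in capitals.
PPIG forward: tggttcaaggtggtgacttc
PPIG reverse: atggtttctgagttgatttccc
TLE1 forward: gtgccaaacaggtgaccat
TLE1 reverse: ctgagacagaaatgggatgact
GLT1D1 forward: caagaatggcatcaggaggag
GLT1D1 reverse: tgtcgaagtccacatatcagaa
WDR41 forward: gcctctgctgatagaacagtt
WDR41 reverse: tttgagtgtgtccattcagttc

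The values are in TPM, a normalised number of back-splice reads, and within each library they were whole numbers of reads times a constant, with 2 reads as the smallest. PCC held 166099 reads in pool 10F, 80314 in 10M, 894932 in 20F and 78611 in 20M, against 58037 to 430956 in the other neocortex. PCC_20F thus held 73.4% of the reads of PCC and was the deepest of the 20 libraries. Precision from these reads is counting precision only, since amplified copies cannot be told from separate molecules, and p-values measure the spread between libraries that each mix 2 animals. In bulk tissue, fewer cells of a type and less RNA per cell cannot be told apart.

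PCC libraries contained fewer circRNAs than most libraries of the other neocortex, but the difference was within what the libraries allow. There were 6587 circRNAs in PCC_10F, 3563 in PCC_10M, 6326 in PCC_20F and 4114 in PCC_20M, against a lowest of 4126, a median of 7569 and a highest of 10927 in the other 16. The PCC libraries thus sat in the lower part of the range, and only PCC_10M and PCC_20M, those with the fewest reads in PCC, lay below all others. The mean was 5148 ± 1532 (SD, n = 4) against 7207 ± 2055 (SD, n = 16), with an exact two-sided permutation p = 0.0784 and an adjusted p of 0.209 over the 8 library measures compared. At an equal depth of 58037 reads, the means were 4841 ± 1222 (SD, n = 4) and 6343 ± 1455 (SD, n = 16), with an exact permutation p = 0.0733 and the same adjusted p of 0.209. The difference was therefore not detectable at this number of libraries, with or without equal depth.

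What the reads were made of was similar in both groups. Exonic circRNAs took 75.5 to 76.7% of the reads in PCC and 74.6 to 77.6% elsewhere, intronic ones 6.40 to 8.37% against 5.88 to 8.12%, and intergenic ones 15.1 to 17.0% against 15.0 to 18.3%. The 10 most frequent circRNAs of a library took 7.70 to 11.5% in PCC and 8.32 to 11.6% elsewhere. The lowest exact permutation p among these 4 shares and the median distance between joined ends was 0.187, with an adjusted p of 0.373.

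Reads from chromosome X set PCC apart most among the 8 measures. They made up 1.37% of reads in PCC_10F, 1.43% in PCC_10M, 1.38% in PCC_20F and 1.34% in PCC_20M, against 0.848 to 1.43% with a median of 1.22% in the other 16. The 4 PCC values lay close together, and 1 other library, TC_10F at 1.43%, was higher than all of them. Within pools, PCC was above 3 of 4 other regions in 10F and above 4 of 4 in 10M, 20F and 20M. The mean difference of 0.220 percentage points had an exact permutation p = 0.00764 and an adjusted p of 0.0611 over the 8 measures, past the threshold of 0.05 only when libraries were exchanged within their pool (exact permutation p = 0.0032, adjusted p = 0.0256).

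No single gene carried the X-linked difference. The intergenic circRNA at 21997726 to 22005040 differed most, with 0.110% of reads in PCC and 0.0675% elsewhere as means, followed by one of GPRASP2 (101269592 to 101326443), a sorter of G protein-coupled receptors, with 0.0538% and 0.0204%. TXLNG (14489404 to 14491400) went the other way, with 0.0139% in PCC and 0.0344% elsewhere. Of 136 X-linked circRNAs tested by limma, 9 were higher and 2 lower in PCC at an unadjusted p under 0.05, where 2.81% and 2.17% of all circRNAs tested were, and their median log2 difference was 0.01 against -0.10 for all circRNAs tested.

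**Figure D1:**
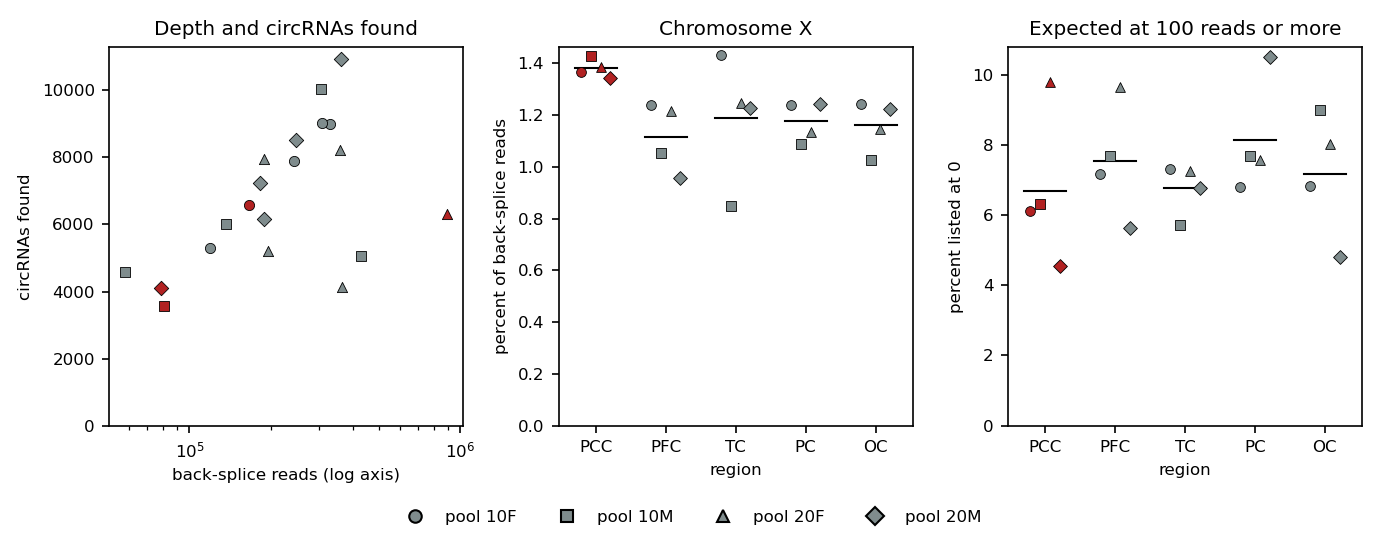
Left, number of circRNAs found against back-splice reads (log axis) in each of the 20 libraries. Middle, percent of back-splice reads on chromosome X by region. Right, of the circRNAs expected at 100 reads or more in a library from the median of the other 19, the percent listed at 0. Red symbols are PCC, grey ones the other neocortex, shapes are pools and bars are region means. PCC_20F stands far to the right with 894932 reads, the PCC values for chromosome X lie between 1.34 and 1.43%, and the zeros of PCC (4.55 to 9.81%) overlap those of the other regions (4.80 to 10.5%).

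Of the 13287 circRNAs found in PCC, 10023 (75.4%) were also found in the other neocortex and 3264 (24.6%) were not. Of the latter, 3177 were found in 1 PCC library alone, 1134 of them in PCC_20F, and 87 in 2 or more. A circRNA of CAMK2B (chromosome 3, 82101792 to 82105468), which encodes the beta subunit of a calcium/calmodulin-dependent kinase of synapses, was the only one in 3 PCC libraries and no other. It was at 18.3 TPM in PCC_10F, 28.1 TPM in PCC_20F, 29.5 TPM in PCC_20M and 0 in PCC_10M. None was found in all 4 PCC libraries and nowhere else, while 3 were found in all 16 other libraries and in no PCC library. The 3 are of DGKB, SGSM1 and an unnamed gene (ENSMMUG00000020236), and are described with the circRNAs of lower level.

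PCC libraries did not resemble one another more than they resembled other regions. Over the 7547 circRNAs tested, Spearman's rho between pairs of PCC libraries was 0.297 to 0.382 with a median of 0.345 over 6 pairs, and between a PCC and another library 0.308 to 0.426 with a median of 0.358 over 64 pairs. These correlations across circRNAs are descriptions, since sparse values at depths as different as these lower them.

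The most abundant circRNAs of PCC were also those of the rest of the neocortex. The highest mean was that of GDAP1L1 (chromosome 10, 20186521 to 20187867), with 4082 TPM in PCC_10F, 5140 in PCC_10M, 2661 in PCC_20F and 4846 in PCC_20M against 1264 to 5979 TPM (median 3293) elsewhere. The PCC values fell inside the range of the others, where the gene also ranked 1 by mean. It was followed in PCC by an intergenic circRNA (chromosome 14, 127298190 to 127302852) with a mean of 2178 TPM, and by those of KIAA0802 (chromosome 18, 5660775 to 5662824), also called MTCL1, a crosslinker of microtubules, with 1913 TPM, YAF2 (chromosome 11, 39133774 to 39134038), a part of Polycomb repressive complexes, with 1895 TPM, and MAP7 (chromosome 4, 127448274 to 127449378), which recruits kinesin to microtubules, with 1866 TPM. In the other neocortex these ranked 4, 5, 7 and 10. All 5 had log2 differences between 0.24 and 0.93 and adjusted p of 0.755 or more by limma.

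Few circRNAs of PCC differed from the other neocortex when all were tested together. By limma on log2(TPM + 1.775), 0 of 7547 circRNAs were higher in PCC (0% called) and 4 were lower (0.053% called) at an adjusted p under 0.05. At an unadjusted p under 0.05, 376 differed (4.98%), 212 of them higher (2.81%) and 164 lower (2.17%). The test took its spread from all circRNAs of like level, its prior degrees of freedom being at their upper limit, so a circRNA was tested against the common spread even where its own was larger. The exact permutation test, which uses only the circRNA's own 20 values, is therefore given beside it. The median log2 difference of all tested circRNAs was -0.10, and it moved to -0.23 when the libraries were scaled to 1 common total and to -0.22 with reads divided by size factors.

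**Figure D2:**
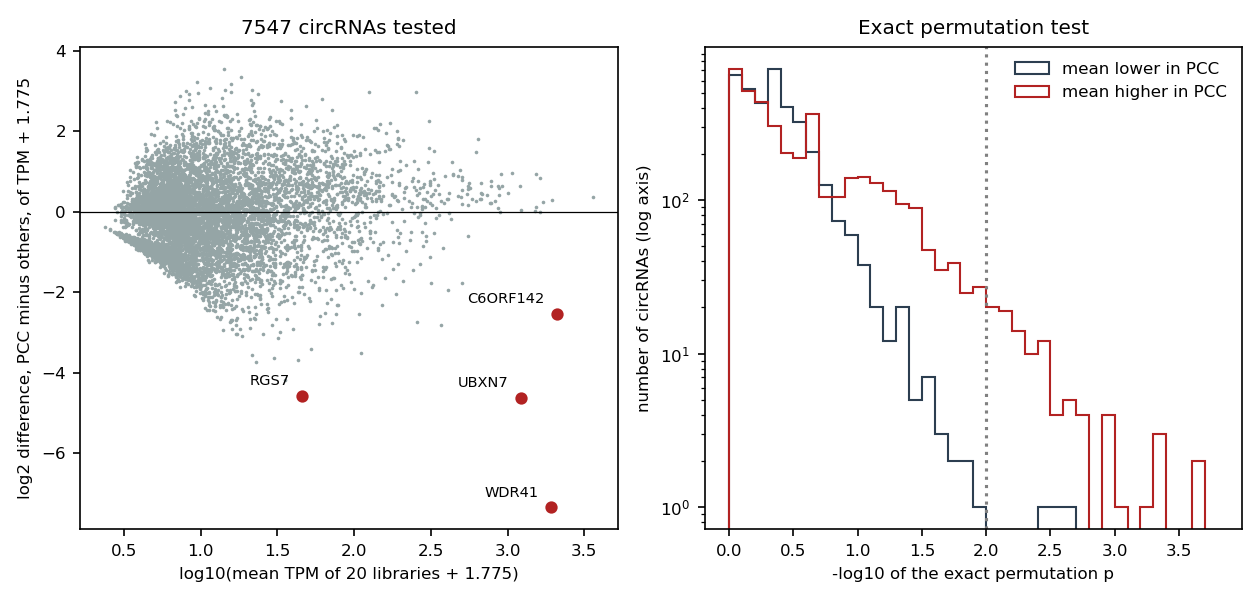
Left, the difference between PCC and the other neocortex in log2(TPM + 1.775) against the mean level, for the 7547 circRNAs tested, with the 4 that passed the limma test in red. Right, number of circRNAs (log axis) by -log10 of the exact permutation p, for circRNAs with a mean higher or lower in PCC, with the dotted line at p = 0.01. The 4 labelled circRNAs lie at log2 differences of -2.54 to -7.34, and to the right of the dotted line are 99 circRNAs with a higher and 3 with a lower mean in PCC.

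The circRNA with the largest difference was that of WDR41 (chromosome 6, 73699671 to 73701378), whose protein forms a complex with C9ORF72 and SMCR8 at lysosomes. It was listed at 0 in PCC_10F, PCC_20F and PCC_20M and at 3026 TPM in PCC_10M, while the other 16 libraries had 458 TPM at the lowest, 2200 at the median and 4260 at the highest. The 3 zeros lay below every other library, and the PCC_10M value lay above the median of the others, so the groups overlapped. At the median of the others, 1565 reads would have been expected in PCC_10F, 7201 in PCC_20F and 671 in PCC_20M. The log2 difference was -7.34 ± 0.56 (SE) with an adjusted p = 1.42e-35 by limma, and the exact permutation p was 0.0506. The primers printed for WDR41 are for this junction, and the other circRNAs of the gene did not pass the filter on low values.

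A circRNA of UBXN7 (chromosome 2, 189036369 to 189048246), an adaptor of the segregase VCP, had the second largest difference among the calls. It was listed at 988 TPM in PCC_10F and 2291 TPM in PCC_20F but at 0 in both PCC_10M and PCC_20M, against 859, 1151 and 2190 TPM as the lowest, median and highest elsewhere. Both female pools were thus within or above the range of the other libraries and both male pools below it. At the median of the others, 390 reads would have been expected in PCC_10M and 351 in PCC_20M. The log2 difference was -4.62 ± 0.56 (SE), with an adjusted p = 4.59e-13 by limma and an exact permutation p = 0.151. The adjusted p was 0.121 when limma used 1 spread for circRNAs of all levels. Another circRNA of UBXN7 that shares its end (189031691 to 189048246) was present in all 4 PCC libraries, at 67.5, 91.4, 256 and 135 TPM in the order 10F, 10M, 20F and 20M.

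The call for C6ORF142 rested on 1 library and on the settings of the test. C6ORF142 encodes MLIP, a protein that binds lamin A/C, and its circRNA (chromosome 4, 53822249 to 53875750) was at 2457 TPM in PCC_10F, 2341 in PCC_20F and 935 in PCC_20M but listed at 0 in PCC_10M, where 753 reads would have been expected. The other libraries had 300 TPM at the lowest, 2221 at the median and 4904 at the highest, with a mean of 668 TPM in OC and of 2211 to 3467 TPM in PC, PFC and TC. The 3 PCC values above 0 lay inside that range. The log2 difference of -2.54 ± 0.47 (SE, adjusted p = 0.000201 by limma, exact permutation p = 0.270) became -0.05 without PCC_10M (adjusted p = 0.992 by limma). With all libraries, limma gave an adjusted p of 0.539 among circRNAs above 0 in at least 10 libraries, 0.815 with 1 spread for circRNAs of all levels and 0.0506 on region means. Summed over the 17 circRNAs of the gene, PCC_10M had 796 TPM and the log2 difference of the gene was -0.33 with an adjusted p of 0.861 by limma.

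A circRNA of RGS7 was the only call of the 4 without a value above 0 in PCC. RGS7 accelerates GTP hydrolysis by G proteins of the Gi/o class in neurons, and the circRNA lies on chromosome 1 (216055234 to 216110689). It was listed at 0 in all 4 PCC libraries and was above 0 in 15 of the 16 others, with a median of 61.3 TPM and a highest of 107 TPM; PFC_10M was the other library at 0. The groups touched only at that zero. At the median of the others, 43.6 reads would have been expected in PCC_10F, 20.8 in PCC_10M, 201 in PCC_20F and 18.7 in PCC_20M. If each listed 0 stands for at most a floor of 3 reads, the mean was at least 9.27-fold lower in PCC. Since abundant circRNAs were also listed at 0, as described below, a 0 need not bound the level in this way. Limma gave an adjusted p = 0.0104 and the exact permutation test p = 0.00248. The call was lost by limma without PCC_10M (adjusted p = 0.0629), without PCC_20M (adjusted p = 0.0570), and without all libraries of pool 10F, 20F or 20M (adjusted p of 0.259, 0.114 and 0.0935). It was also lost without a filter on low values (adjusted p = 0.353) and without the 3 libraries with most clean reads (adjusted p = 0.0577), and in all these lost calls the log2 difference was -4.26 to -4.77.

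The absence concerned this junction and not the gene. The most abundant circRNA of RGS7 (216162927 to 216164777) was at 502, 938, 393 and 581 TPM in PCC_10F, PCC_10M, PCC_20F and PCC_20M, against 0 to 1367 TPM elsewhere with a median of 403 TPM. A shorter one that ends at the same position (216105371 to 216110689) was at 117, 115, 11.6 and 167 TPM in the same order. Summed over its 19 circRNAs, RGS7 had 578 to 1138 TPM in PCC and 264 to 1542 TPM elsewhere, with a log2 difference of 0.45 and an adjusted p of 0.748 by limma. The summed levels of PCC lay inside the range of the others.

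**Figure D3:**
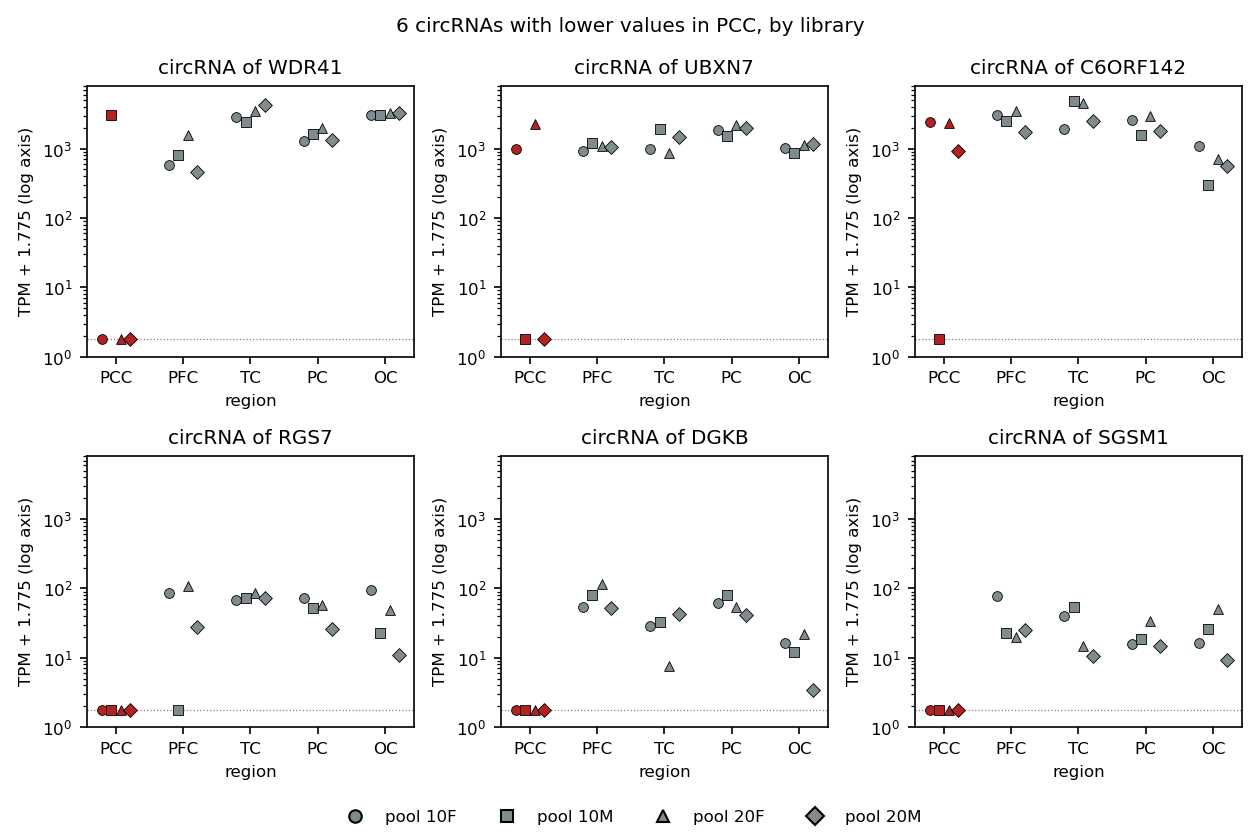
TPM plus 1.775 (log axis) of 6 circRNAs in each of the 20 libraries by region, PCC in red and the other neocortex in grey, with shapes for pools and the dotted line at a deposited value of 0. The circRNAs of WDR41, UBXN7 and C6ORF142 are at 0 in 3, 2 and 1 PCC libraries and at 935 TPM or more in the remaining ones, whereas those of RGS7, DGKB and SGSM1 are at 0 in all 4 PCC libraries.

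Zeros in otherwise abundant circRNAs occurred in all 20 libraries. Of the circRNAs for which the median of the other 19 libraries predicted at least 100 reads, 6.11% were listed at 0 in PCC_10F, 6.33% in PCC_10M, 9.81% in PCC_20F and 4.55% in PCC_20M, against 4.80 to 10.5% (median 7.29%) in the other 16 libraries. The groups overlapped, with an exact permutation p = 0.446. At 0 in 3 or more libraries of a region, out of those expected at 100 reads in all 4, were 1 of 66 circRNAs in PCC (that of WDR41), 2 of 326 in PFC (those of XPO5 and ZNF827), 0 of 35 in TC, 0 of 200 in PC and 0 of 265 in OC. With such zeros set as missing, the log2 difference of the WDR41 circRNA was 0.71 (adjusted p = 0.749 by limma), that of UBXN7 0.25 (adjusted p = 0.945), and that of C6ORF142 -0.05 (adjusted p = 0.989). The call of RGS7 was lost (adjusted p = 0.0576 by limma), and its difference cannot move under this setting, as its remaining PCC values are all 0. What makes a value 0 was not tested.

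Another 6 circRNAs had the smallest limma p among those lower in PCC in each of the 4 pools, but did not pass. That of DGKB, diacylglycerol kinase beta (chromosome 3, 111480686 to 111504995), came closest, at 0 in all 4 PCC libraries and at 1.62 TPM at the lowest, 40.1 at the median and 114 at the highest elsewhere, so that the groups did not overlap. Its adjusted p was 0.0598 by limma and its exact permutation p 0.0142. It passed limma, with adjusted p of 0.00854 to 0.0410, under 11 alternatives, among them a pseudocount of 1, other scalings, region means and omission of OC or TC. It failed, among others, with the filter of the methods (adjusted p = 0.156 by limma), without a filter (0.550), without PFC (0.377) and without PC (0.293). It also failed without the 3 libraries with most clean reads (0.161) and whenever 1 replicate was left out (0.130 to 0.312). A junction of DGKB whose start lies 3 bases away (111480683 to 111504995) was at 25.3 TPM in PCC_10F, 45.9 TPM in PCC_20M and 0 in the other PCC libraries. Summed over both junctions, the other libraries had 5.90 to 118 TPM, the groups overlapped and the exact permutation p was 0.0402. The longer circRNA 111445076 to 111504995 of the same gene was present in all 4 PCC libraries, at 32.4 to 115 TPM.

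The circRNA of SGSM1 (chromosome 10, 69084121 to 69086753), a modulator of small G proteins, was at 0 in all 4 PCC libraries and at 7.55 to 76.1 TPM (median 19.6) elsewhere. The groups did not overlap, yet the exact permutation p was 0.0149 and the adjusted p by limma 0.239, and only 5.99 to 64.3 reads would have been expected in the PCC libraries. An intronic circRNA of ENSMMUG00000020236 (chromosome 19, 58497661 to 58501201), named here after its values were seen, was also at 0 in PCC and at 3.83 to 44.8 TPM elsewhere. DGKB, SGSM1 and this one were the 3 of 7547 circRNAs (0.0398%) with all PCC libraries below all others.

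The other 4 were at 0 in at least 2 PCC libraries. Those of NCOA7 (chromosome 4, 138016973 to 138018868), a coactivator of nuclear receptors, and an intergenic one (chromosome 20, 87630756 to 87633308) were at 0 in all 4, against medians of 20.0 and 29.7 TPM elsewhere. That of ATXN2 (chromosome 11, 112494580 to 112495283), the RNA-binding protein with the polyglutamine tract of spinocerebellar ataxia, was at 9.84 TPM in PCC_10F and 0 in the other PCC libraries, against a median of 51.7 TPM and up to 100.2 TPM elsewhere. The intergenic circRNA 98747579 to 98756555 on chromosome 13 was at 82.9 and 29.5 TPM in PCC_10F and PCC_10M and 0 in both 20-year pools, against 34.6 to 329 TPM elsewhere. Their adjusted p by limma ran from 0.108 to 0.307. RGS7, ATXN2 and NCOA7 were above 0 in 15, 14 and 15 of the 16 other libraries.

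The exact permutation test at p under 0.01 was applied to every circRNA as well. Of 7547, 99 (1.31%) had a higher mean and 3 (0.0398%) a lower one, and the smallest adjusted p was 0.623, so none passed an adjusted threshold of 0.05. At p under 0.05 there were 499. The test did not reach both directions alike, since the 3 circRNAs with all PCC libraries below all others had p of 0.0142, 0.0149 and 0.0256, and those with all PCC libraries above had 0.000206. Nothing is therefore read from the split into higher and lower. The 3 lower ones were those of RGS7, ATXN2 and CELF2 (chromosome 9, 11499668), the last named after its values were seen. Of the 99 higher ones, 63 were above 0 in all 4 PCC libraries, as were 915 of all 7547 tested, and 33 had a median of 0 in the other libraries. Selection by a higher PCC mean favours both, so nothing is read from these counts. The numbers also depended on the scale, with 55 higher and 8 lower when all libraries had the same total and 53 and 8 with reads divided by size factors, so that the higher share moved from 97.1% to 87.3% and 86.9%. With 4845 ways to choose 4 of 20 libraries, the smallest p possible is 0.000206.

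Just 2 circRNAs (0.0265% of those tested) were higher in all 4 PCC libraries than in all 16 others, and both had that smallest p. That of MTMR12 (chromosome 6, 32369200 to 32377333), a catalytically inactive myotubularin, was at 12.7 TPM in PCC_10F, 32.4 in PCC_10M, 46.1 in PCC_20F and 26.3 in PCC_20M, against a median of 0 and a highest of 10.3 TPM elsewhere. That of MKLN1 (chromosome 3, 168765556 to 168777982), or muskelin, a part of a ubiquitin ligase complex, was at 18.3, 29.5, 19.9 and 16.4 TPM in the same order, against a median of 0 and a highest of 15.4 TPM in OC_10F. MKLN1 was named after its values were seen. The means of PCC were 12.6-fold and 6.82-fold those of the others, yet limma gave adjusted p of 0.377 and 0.562. The values stand for 151 and 65 reads in PCC_20F, but for only 8 to 11 and 5 to 13 reads in the remaining PCC libraries. MTMR12 was above 0 in 6 and MKLN1 in 4 of the 16 other libraries. The filter asked for 3 reads in at least 5 libraries, so MKLN1 passed it only through PCC libraries, where it was high. Its p, its ratio and its place among the 2 are therefore given as values only.

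The circRNAs with the smallest limma p among those higher in PCC in each pool came from genes of several kinds. The kinases were TLK2 (chromosome 16, 58058721 to 58060185), which acts in chromatin assembly, NLK (chromosome 16, 23341224 to 23345218), or Nemo-like kinase, and MARK4 (chromosome 19, 51711556 to 51715410), which phosphorylates tau and other microtubule proteins. The circRNA of TLK2 was at 446, 372, 207 and 436 TPM in PCC_10F, PCC_10M, PCC_20F and PCC_20M, against 0 to 699 TPM elsewhere with a median of 217 TPM. It was above 0 in all PCC libraries and in 10 of the other 16, and no PCC value exceeded the highest of the others. Its log2 difference of 2.97 ± 0.89 (SE) had the smallest p among those higher, 0.000849 by limma, with an adjusted p of 0.377 and an exact permutation p = 0.240. The other 6 libraries were at 0.

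NLK and MARK4 were lower in level, and were above 0 in 9 and 6 of the 16 other libraries. The NLK circRNA was at 23.9, 61.9, 98.4 and 42.7 TPM in PCC in the order 10F, 10M, 20F and 20M, against a median of 3.62 and a highest of 26.5 TPM elsewhere (exact permutation p = 0.000413). Only PCC_10F lay within the range of the others. The MARK4 circRNA was at 8.43, 26.5, 77.3 and 42.7 TPM, against a median of 0 and a highest of 42.1 TPM (exact permutation p = 0.00537), with PCC_20F and PCC_20M above that range.

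The others were of varied function. EXOC2 (chromosome 4, 451392 to 478889) is a subunit of the exocyst, KIDINS220 (chromosome 13, 8858060 to 8864608) a scaffold of neurotrophin receptors, SH3KBP1 (chromosome X, 17379144 to 17435434) an adaptor of receptor endocytosis, and CAAP1 (chromosome 15, 50215199 to 50243797) a regulator of caspase activity. Their PCC means were 47.1, 60.0, 39.5 and 26.6 TPM against 5.57, 9.84, 7.52 and 3.22 TPM elsewhere, ratios of 8.44, 6.10, 5.25 and 8.26. Among these 4, CAAP1, KIDINS220 and SH3KBP1 had 3 PCC libraries above all others and EXOC2 had 1, that of PCC_10M at 115 TPM. Their exact permutation p ran from 0.000413 to 0.00475. An intronic circRNA of ZNF644 (chromosome 1, 93677169 to 93691861), a zinc finger protein, completed the 10 with means of 52.4 and 14.3 TPM and no PCC library above all others, with MTMR12 and PPIG as the remaining members.

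SH3KBP1 also had a junction whose end lies 5 bases from that of the named circRNA, at 28.4 TPM in PCC_20F, 0 in the other PCC libraries and above 0 in 1 other library. Summed over both, PCC had 42.2, 53.1, 48.6 and 42.7 TPM in the order of the pools against a highest of 37.7 TPM elsewhere, so the groups did not overlap (exact permutation p = 0.000206). The sum was formed after the values were seen. Of the 10 circRNAs with the smallest limma p among those higher, all had adjusted p of 0.377 to 0.698 by limma, and none passed.

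**Figure D4:**
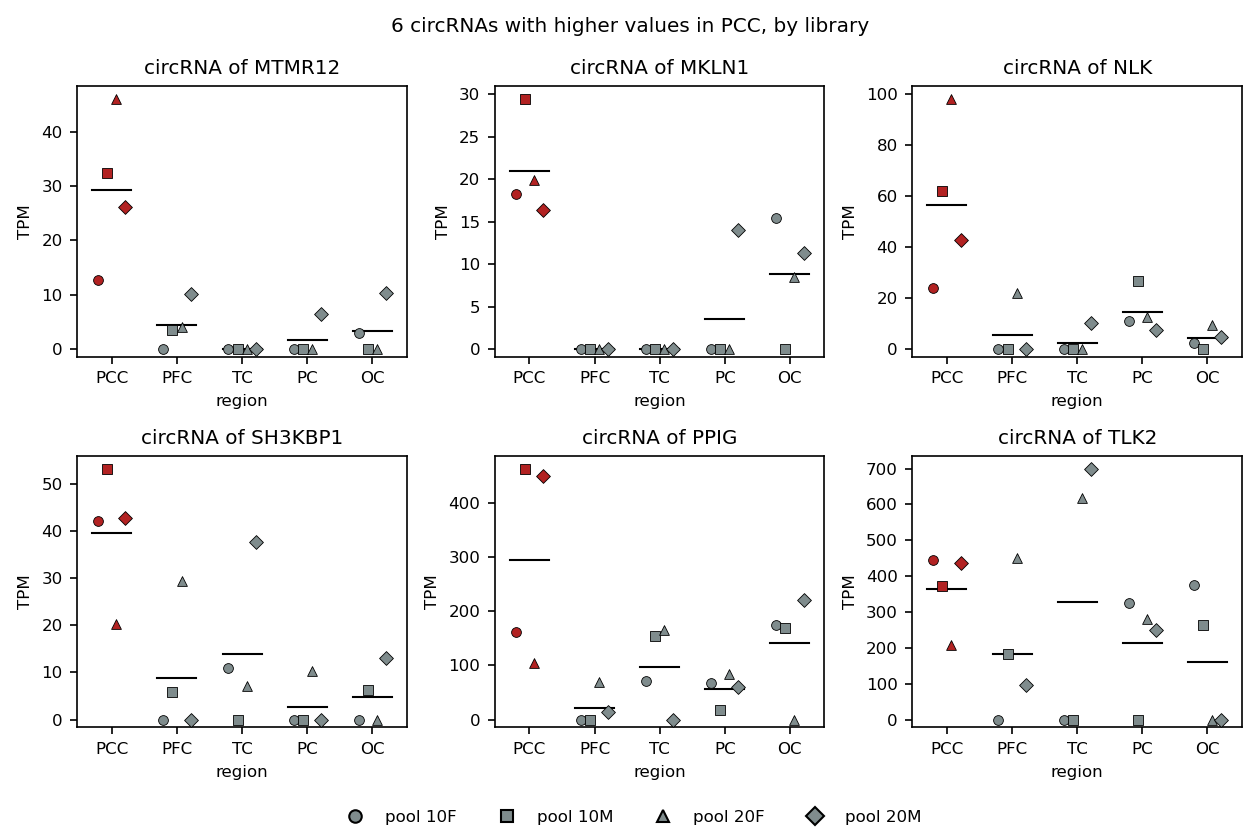
TPM of 6 circRNAs in each of the 20 libraries by region, PCC in red and the other neocortex in grey, with shapes for pools and bars for region means. The PCC values of MTMR12 and MKLN1 lie above all other libraries, NLK and SH3KBP1 have 3 PCC libraries above all others, PPIG has 2, and TLK2 has none.

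The 3 circRNAs that the study listed as PCC candidates were chosen on data that include these libraries, so their tests are no independent evidence. The study set each area against all its other areas, hippocampus and cerebellum included, so its reference libraries differed from the 16 used here. The circRNA of PPIG, a nuclear cyclophilin that binds splicing factors, was at 162 TPM in PCC_10F, 463 in PCC_10M, 105 in PCC_20F and 450 in PCC_20M, against 0 to 221 TPM (median 68.7) elsewhere. PCC_10M and PCC_20M lay above all other libraries and the 2 female pools within their range. The means were 295 ± 188 TPM (SD, n = 4) and 79.3 ± 75.1 TPM (SD, n = 16), a ratio of 3.72, with an exact permutation p = 0.00516 and an adjusted p of 0.0155 over the 3 candidates. By region, the means were 20.8 TPM in PFC, 57.2 in PC, 97.8 in TC and 141 in OC. Without PCC_10M or without PCC_20M, the adjusted p was 0.0774 in the exact permutation test.

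TLE1, a Groucho-type corepressor of transcription, and GLT1D1 did not pass. The TLE1 circRNA was at 60.4, 64.9, 7.33 and 62.3 TPM in PCC in the order 10F, 10M, 20F and 20M, against 0 to 107 TPM (median 10.2) elsewhere, with an exact permutation p = 0.0947 and an adjusted p of 0.133. PCC_20F stood apart at the low end, and without it the adjusted p was 0.0387 by the exact permutation test. The GLT1D1 circRNA, an intronic one, was at 54.8, 44.2, 11.3 and 72.2 TPM against 0 to 113 TPM (median 13.5), with an exact permutation p = 0.133 and an adjusted p of 0.133. No PCC library of either circRNA exceeded the highest of the others, which was in TC for both. The primer pairs printed for the 3 candidates are for these junctions.

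Summing the circRNAs of a host gene left 1 call of 3983 genes tested by limma. WDR41 was lower (0.0251% called) with an adjusted p = 5.15e-11, and 0 genes were higher (0% called). At an unadjusted p under 0.05, 216 genes (5.42%) differed, 95 (2.39%) higher and 121 (3.04%) lower. The summed level of WDR41 was that of its one abundant circRNA, with 3026 TPM in PCC_10M and 0 in the other PCC libraries, so the limits given for that circRNA hold here too.

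Among the genes with higher sums in each pool, none passed the test, and PPIG and MTMR12 were again present. PPIG had 191, 475, 116 and 522 TPM in PCC_10F, PCC_10M, PCC_20F and PCC_20M, against 15.6 to 237 TPM elsewhere. MTMR12 had 39.4, 32.4, 94.1 and 26.3 TPM in the same order, against 0 to 20.4 TPM, so the summed values of MTMR12 did not overlap. Of the other genes, GPRASP2, ACBD5, a tether between peroxisomes and the endoplasmic reticulum, SNX9, a sorting nexin of endocytosis, BRIX1, a ribosome assembly factor, and SMC1A, a cohesin subunit, had log2 differences of 2.13 to 2.76 with adjusted p of 0.743 by limma. CAAP1 and KIDINS220 had 2.63 and 2.41 with the same adjusted p.

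Lower sums in each pool were found for genes of several kinds, and again none of them passed. C14H11ORF74, SH3D19 and LRFN5, a synaptic adhesion molecule, were at 0 in all 4 PCC libraries, against medians of 17.6, 18.1 and 10.5 TPM elsewhere. In PCC_10M and PCC_20M a floor of 3 reads stands for 8.85 and 9.84 TPM, so these zeros bound the levels only loosely there. NCOA7 was at 8.86 TPM in PCC_20F and 0 in the other PCC libraries, and PCCB, a subunit of propionyl-CoA carboxylase, and KIAA0368, a scaffold of the proteasome, were above 0 in PCC_10F alone, at 14.1 and 8.43 TPM. SLC44A1, a choline transporter, and TUB, the tubby protein, were above 0 in both female pools and at 0 in both male pools. Adjusted p were 0.587 to 0.743 by limma for these 8 genes. ENSMMUG00000020236, with its single circRNA, completed the 10.

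Lists of genes by function held no gene that passed the test in either direction. The 19 lists had 217 genes tested, of which 0 were higher and 0 lower at an adjusted p under 0.05 by limma, against 0% and 0.0251% of all host genes. At an unadjusted p under 0.05, 4 entries in the lists were higher and 4 lower, where 2.39% and 3.04% of all host genes were. The lists' medians ran from -0.70 to 0.26 in log2 difference, where the median of all host genes was -0.03. With genes at 0 in PCC set to their bound of 3 reads per library, they ran from -0.52 to 0.26 and that of all was 0.05, so no list is singled out here.

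Among ion channels, 0 of 9 calcium channel subunits and 0 of 14 sodium and potassium channels tested passed. CACNB2, a beta subunit of calcium channels, was at 28.1, 0, 26.9 and 65.6 TPM in PCC_10F, PCC_10M, PCC_20F and PCC_20M, against a median of 43.3 TPM elsewhere, and KCNQ5, a channel of the M current, at 28.1, 64.9, 30.3 and 0 TPM against 45.7 TPM. The other members named by the smallest p, CACNG3 and KCNIP4, had log2 differences of -0.78 and -1.53. Adjusted p were 0.743 to 0.749 by limma, and the summed level of the calcium channel list was 714 to 1988 TPM in PCC and 444 to 2166 TPM elsewhere.

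Receptor genes behaved alike. Of 17 glutamate receptors tested, GRIK5, a kainate receptor subunit, had the smallest p (0.0204 by limma, adjusted p = 0.743), with 21.1, 26.5, 23.5 and 32.8 TPM in PCC in the order of the pools against 0 to 44.8 TPM (median 4.02) elsewhere. GRM7, a presynaptic metabotropic receptor, was at 39.4, 0, 28.4 and 29.5 TPM against a median of 0. Of 6 GABA receptors, GABRB2 had 16.4 to 32.3 TPM in PCC against a median of 8.22 TPM, and GABBR2 29.5 to 111 TPM against 113 TPM. Of 2 monoamine receptors, HTR4, a serotonin receptor, had 0 to 69.1 TPM and ADRA1A, an adrenergic receptor, 0 to 82.6 TPM in PCC, against medians of 25.9 and 22.2 TPM. The ranges of all 6 genes overlapped between PCC and the other neocortex.

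Synaptic genes likewise gave no call. Of 27 genes of presynaptic release, UNC13B, a vesicle priming factor, was at 68.9 to 153 TPM in PCC against a median of 69.3 and a highest of 130 TPM elsewhere, and PPFIA4 was at 0 in PCC against a median of 0.885 TPM. Of 16 postsynaptic scaffold genes, MAGI1 was at 16.4 to 91.4 TPM against a median of 20.9 TPM, and MAGI3 was above 0 only in PCC_20F. Of 22 synaptic adhesion genes, LRFN5 was at 0 in PCC with an adjusted p of 0.743 by limma. CNTN6, a contactin, was at 13.1 to 64.2 TPM against a median of 5.74 and a highest of 65.2 TPM (adjusted p of 0.743 by limma).

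Of 39 kinase signalling genes tested, 2 were higher and 1 lower at an unadjusted p under 0.05, against 2.39% and 3.04% of all host genes. PLCB1, a phospholipase C activated by Gq, was at 98.4, 44.2, 66.0 and 55.8 TPM in PCC_10F, PCC_10M, PCC_20F and PCC_20M, against 0 to 46.0 TPM (median 26.0) elsewhere, with an adjusted p of 0.743 by limma. Only PCC_10M lay within the range of the others. CAMK4, a kinase of neuronal nuclei, was the other higher gene, with means of 80.4 and 29.5 TPM (adjusted p of 0.743 by limma). CAMK2D, the delta subunit of the kinase to which CAMK2B belongs, was at 0 in PCC and at 0 to 40.2 TPM elsewhere. Of 19 Alzheimer disease genes, APBB2, which binds the amyloid precursor protein, was at 109 to 239 TPM in PCC against 11.0 to 168 TPM (median 71.1), and MEF2C, a neuronal transcription factor, at 0 to 10.4 TPM against 0 to 81.2 TPM (median 21.8), each with an adjusted p of 0.743 by limma.

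Markers of cell types were used to check the tissue label. Of 7 excitatory neuron markers with a circRNA, 6 were above 0 in PCC, and of 8 inhibitory neuron markers 5 were. GAD2 was not among them, but its mean elsewhere was only 0.0738 TPM. GAD67 had means of 12.5 TPM in PCC and 2.56 TPM elsewhere. No share of all host genes is set beside these counts, so they show presence only. The summed levels of PCC were 189 to 581 TPM for excitatory neurons and 74.5 to 178 TPM for inhibitory neurons, against 192 to 695 TPM and 30.8 to 180 TPM elsewhere. Markers of hippocampal neurons summed to 0 to 45.5 TPM in PCC and 0 to 30.9 TPM in the other neocortex. The deep layer markers summed to 55.8 to 205 TPM in PCC and 0 to 162 TPM elsewhere.

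Glial and vascular markers also overlapped between the groups. Oligodendrocyte and myelin markers summed to 165 to 235 TPM in PCC and 98.4 to 572 TPM elsewhere. MBP and MOG were among 7 of 20 at 0 in PCC, but their means elsewhere were only 0.319 and 1.36 TPM. MAG and MOBP went the other way, with means of 16.6 and 6.56 TPM in PCC against 1.18 and 0.135 TPM elsewhere. No share of all host genes is set beside the count at 0, so nothing is read from it. Within this list, SLC44A1 (adjusted p of 0.681 by limma) and EDIL3 (adjusted p of 0.743), which was at 0 in PCC, were the 2 lower entries of 10 tested at an unadjusted p under 0.05, against 3.04% of all host genes. Precursor markers summed to 20.6 to 70.3 TPM in PCC and 7.25 to 144 TPM elsewhere, and astrocyte markers to 177 to 360 TPM and 124 to 337 TPM. GFAP was at 0 in PCC, but its mean elsewhere was only 0.679 TPM. Microglial markers summed to 0 to 21.7 TPM in PCC and 0 to 31.4 TPM elsewhere. Those of endothelium and pericytes summed to 23.0 to 81.5 TPM and 5.32 to 92.6 TPM. A circRNA level is not the level of the gene's mRNA, so these sums limit a difference in cell make-up only loosely, and their part in the results was not tested.

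**Figure D5:**
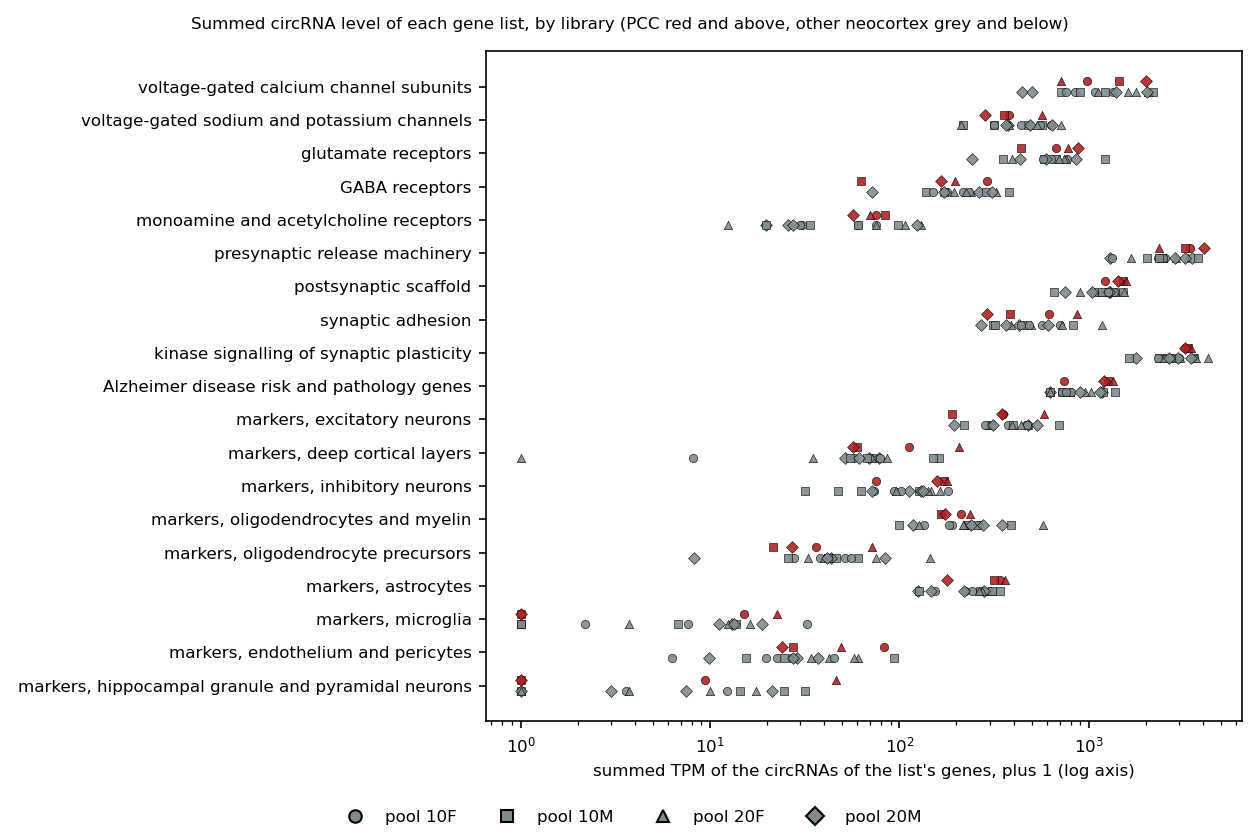
Summed TPM plus 1 (log axis) of the circRNAs of each gene list in each library, PCC in red in the upper row of a list and the other neocortex in grey in the lower row, with shapes for pools. In every list the PCC libraries overlap those of the other neocortex.

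Set against each region alone, PCC differed in 2 to 9 circRNAs, most against TC. At an adjusted p under 0.05 by limma, 0 were higher and 3 lower in PCC than in PFC (0.0398%), 4 higher (0.053%) and 5 lower (0.0663%) than in TC, 1 higher (0.0133%) and 2 lower (0.0265%) than in PC, and 0 higher and 2 lower (0.0265%) than in OC. The circRNAs of WDR41 and UBXN7 had adjusted p of 0.00531 or less against each of the 4 regions. That of C6ORF142 passed against TC alone (adjusted p = 0.0276 by limma). Its adjusted p by limma was 0.0932 against PFC, 0.177 against PC and 0.951 against OC, where its level was the lowest among the other regions. That of RGS7 passed against TC alone (adjusted p = 0.0285 by limma) and that of DGKB against PFC alone (adjusted p = 0.0458 by limma). The fifth one lower than in TC, named after its values were seen, was of UBE2F (chromosome 12, 101890500 to 101897132), an enzyme that conjugates NEDD8, at 0 in both male pools of PCC and at 402 and 128 TPM in PCC_10F and PCC_20F, against 500.0 to 916 TPM in TC. These comparisons share the PCC libraries.

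The circRNAs higher in PCC than in a single region were named after their values were seen. Against PC, that of CFLAR (chromosome 12, 64893832 to 64898485), an inhibitor of death receptor signalling, was at 727, 1011, 561 and 623 TPM in PCC_10F, PCC_10M, PCC_20F and PCC_20M and at 0 to 812 TPM in PC (adjusted p = 0.0227 by limma). Against TC, that of SASH1 (chromosome 4, 114820915 to 114840557), a scaffold protein, was at 87.2, 97.3, 143 and 151 TPM and that of ZC3H18 (chromosome 20, 86759668 to 86762282), a factor of nuclear RNA decay, at 287, 242, 1012 and 345 TPM, against highest values of 15.7 and 146 TPM in TC. Both had an adjusted p of 0.0423 by limma, and PCC did not overlap TC.

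The remaining ones overlapped TC. That of ZFPM2 (chromosome 8, 107920741 to 107945066), a cofactor of GATA transcription factors, was at 153 to 392 TPM in PCC and at 0 to 254 TPM in TC (adjusted p = 0.0145 by limma). That of STK39 (chromosome 12, 31639015 to 31754904), a kinase that regulates cation-chloride cotransporters, was at 291, 773, 725 and 0 TPM in the order of the pools and at 0 to 212 TPM in TC (adjusted p = 0.0423 by limma).

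Between ages, 2 PCC libraries stood on each side, and the other 16 gave the spread. Those 16 came from the same pools as the PCC libraries, with 2 pools at each age. The fit had no pool term, so regions of the same animals counted as replicates of age. Its p-values therefore do not measure the spread between animals, and no exact permutation test is given for age. By limma, 3 circRNAs were higher (0.0398% called) and 2 lower (0.0265% called) at 20 years than at 10 years in PCC, and 539 of 7547 (7.14%) had an unadjusted p under 0.05. The 3 higher ones were of GNB1, a beta subunit of G proteins, C6ORF142, and DNM3, a neuronal dynamin. The 2 lower ones were of WDR41 and DPP6, an auxiliary subunit of potassium channels.

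Each of the 5 rested on PCC libraries listed at 0. The GNB1 circRNA (chromosome 1, 4846317 to 4871196) was at 0 in both 10-year PCC libraries and at 638 and 377 TPM in PCC_20F and PCC_20M, against medians of 322 TPM at 10 and 356 TPM at 20 years elsewhere (adjusted p = 6.3e-05 by limma). That of DNM3 (chromosome 1, 201825415 to 201946143) was at 0 and 0 against 177 and 256 TPM, and that of DPP6 (chromosome 3, 191431366 to 191460510) at 228 and 180 TPM against 0 and 0, each with an adjusted p of 0.0264 by limma. A circRNA of CCDC66 (chromosome 2, 79796175 to 79796634), at 222 and 156 TPM at 10 years and 0 in both at 20 years, missed the threshold with an adjusted p of 0.0596. In PCC the ages did not overlap for these 4, and in the other neocortex they did.

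The age difference in PCC differed from that in the other neocortex for 2 circRNAs by the interaction term in limma, 1 higher (0.0133% called) and 1 lower (0.0133% called) at 20 years. At an unadjusted p under 0.05 there were 471 (6.24%). They were those of C6ORF142 (4.42 ± 0.97 (SE) on the log2 scale, adjusted p = 0.0203) and WDR41 (-5.65 ± 1.14 (SE), adjusted p = 0.00504). Each rests on PCC_10M, the library listed at 0 for the first and the only PCC library above 0 for the second. The fit that gave these p-values had no pool term either, so they carry the same limit as the age tests. With the pool as a block, 0 were higher and 1 was lower, and without PCC_20F 0 were higher and 2 lower.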

How the data were processed

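Back-splice reads were measured in rRNA-depleted, RNase R-treated RNA of 20 neocortical libraries, 4 of PCC and 16 of PFC, TC, PC and OC, and 12 hippocampal and cerebellar libraries were not used. The authors trimmed reads with Cutadapt, aligned them with bwa, called circRNAs with CIRI2 from at least 2 reads, scaled libraries by size factors, and deposited the values as TPM. The genome build is not given in the sources used here. All values were whole numbers of reads, within 0.1 read, times a constant per library, and reads were recovered from it. Groups came from the labels, and the pool name served as replicate number.

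The comparison used limma 3.58.1 in R 4.3.3 with an intensity trend on log2(TPM + 1.775), over circRNAs with at least 3 reads in at least 5 of the 20 libraries, which left 7547 of 43868, and on sums over host genes. P-values were adjusted by Benjamini-Hochberg, with a threshold of 0.05. Fold changes on this scale understate those of low values. Exact two-sided permutation tests over the 4845 choices of 4 of 20 libraries (Python 3.11.15, SciPy 1.17.1) were called at p under 0.01, and used for library measures and candidates. Age was tested in limma with group, age, their interaction and sex. Both tests were tried on simulated data. Depth ran from 58037 to 894932 reads, and a floor was set at 3 reads per library. Unexpected zeros were values at 0 where the median of the other libraries predicted at least 100 reads. A further 1084 circRNAs were given a gene symbol by matching gene IDs.

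Same-numbered libraries come from the same animals, so the numbers pair them. Deviations from region means correlated at -0.00983 to 0.0785 (median 0.0403) within pools and at -0.0515 to 0.0239 (median -0.0114) between pools.

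Named circRNAs were, in each direction, the 10 with the smallest limma p among calls, filled up from those above 0 in at least 10 libraries that differed in the same direction in every pool. Host genes followed the same rule, of which 1 gene is not reported here, age took 3 in each direction, and lists took the 2 genes with the smallest p. The 3 candidates of the study and the 5 circRNAs highest in PCC were always named. Members and gene lists were chosen with earlier results of these data known. Alternatives covered the pseudocount, filter, scaling, trend, region means, replicate block and omission of libraries. The choice of limma-voom on recovered reads, and of unexpected zeros as missing, was made after seeing the data.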

Additional observations from a re-analysis of the deposited data

Results flagged for a closer look

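The number of back-splice reads of PCC_20F, 894932, lay far from those of the other 3 PCC libraries, which had 78611 to 166099. Of 38 sets of 4 PCC values examined for a library far from the others, 4 had one. No chance rate is set beside this count, since many sets were chosen by their PCC values. A set with 3 zeros and 1 value above 0 is always flagged. The other 3 were the WDR41 circRNA (chromosome 6, 73699671 to 73701378), at 3025.61 TPM in PCC_10M and 0 in the rest, the ATXN2 circRNA (chromosome 11, 112494580 to 112495283), at 9.84 TPM in PCC_10F and 0 in the rest, and the TLE1 circRNA (chromosome 15, 90413617 to 90415753), at 7.33 TPM in PCC_20F and 60.4 to 64.9 TPM in the rest.

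The age difference in PCC differed from that in the other neocortex for the circRNAs of C6ORF142 and WDR41. The interaction term in limma was 4.42 on the log2 scale for C6ORF142 (adjusted p = 0.0203) and -5.65 for WDR41 (adjusted p = 0.00504). These p-values do not measure the spread between animals, as stated with the age tests.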

How the results depend on the processing

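Counts of calls by limma moved with the filter and with single libraries. Higher circRNAs numbered 1 with the filter of the methods, 3 without a filter, 1 without the 3 libraries with most clean reads, and 0 to 1 when 1 replicate was left out (1 without PCC_10F or PCC_20F). Lower circRNAs numbered 7 with a pseudocount of 0.1775, 7 without TC, 1 with unexpected zeros as missing, none of it shared with the 4, and 2 to 6 when 1 replicate was left out (2 without PCC_10M). Higher host genes numbered 1 under voom, 1 without the 3 libraries with most clean reads and 0 to 1 with 1 replicate left out. Lower host genes numbered 4 with a pseudocount of 0.1775, 0 with unexpected zeros as missing and 3 under voom, where WDR41 was not among the 3. They numbered 8 without the 3 libraries with most clean reads and 1 to 5 with 1 replicate left out (2 without PCC_10F and 4 without PCC_20F).

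For age in PCC, 0 circRNAs were higher and 0 lower at 20 years among those above 0 in at least 10 libraries, 1 was lower with other regions as covariates, 1 with the same total in every library and 4 without PCC_20F. For the difference of the age effects, 0 were higher and 0 lower among circRNAs above 0 in at least 10 libraries, with other regions as covariates and with the same total, 2 and 3 without a filter, and 0 and 2 without PCC_20F. With the replicate block, 0 were higher, and the block, in which libraries are paired by pool, also brought the chromosome X difference of 0.220 percentage points past the threshold. The block changed no other count of calls by over 1.5 times, and together with region means it left C6ORF142 at an adjusted p of 0.0935 by limma.

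The exact permutation test gave 55 higher and 8 lower circRNAs with the same total, 53 and 8 with size factors, 5 lower without the 3 libraries with most clean reads, and 54 to 124 higher and 1 to 4 lower with 1 replicate left out (54 and 1 without PCC_20M). The difference in intergenic share ran from -0.566 to 0.0642 with 1 replicate left out, that of the 10 most frequent circRNAs from -1.11 to 0.145 (0.0629 without the 3 libraries with most clean reads), and that in log10 distance from -0.0592 to 0.0213. Differences in TPM ran from 159 to 279 for PPIG and 22.2 to 41.3 for TLE1.

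With unexpected zeros as missing, the log2 difference became 0.71 for the WDR41 circRNA, 0.71 for its host gene and 0.25 for the UBXN7 circRNA. The KIAA0802 circRNA was at -0.00707 with size factors and -0.0181 with the same total, and the intergenic circRNA 127298190 to 127302852 on chromosome 14 at -0.0252 under voom. Causes were not tested. Among the 4 calls, C6ORF142 had an adjusted p of 0.983 and UBXN7 one of 0.330 under voom, and DGKB passed under voom (adjusted p = 0.0122). The planned edgeR tests were not run, and limma-voom on the recovered reads was used in their place. Depth limits PCC_10M and PCC_20M, where 3 reads stand for 8.85 and 9.84 TPM.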
